A study of Mus musculus with 16 samples.

Results

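Sphingosine-1-phosphate (S1P) genes were examined in RNA-seq libraries of mouse pulmonary endothelial cells (ECs). The 9 genes, picked by symbol, were the receptors S1pr1, S1pr2, S1pr3 and S1pr4, the sphingosine kinases Sphk1 and Sphk2, the S1P exporter Spns2, the S1P lyase Sgpl1 and the lipid phosphate phosphatase Plpp3. Each was found once among the 54532 genes of both expression tables. All 9 passed the minimum mean of 0.5 FPKM (fragments per kilobase of gene length, scaled to library size) in both experiments. In the first experiment, wild-type (WT) male mice of the C57/BL6J strain, aged 8 weeks, received saline (n = 4) or 10 mg/kg lipopolysaccharide (LPS, n = 6) into the trachea. In the second, Fgfr1 iΔEC/iΔEC mice (n = 3) were set against Fgfr1 loxP/loxP controls (n = 3), and both genotypes received 2 mg/kg LPS by the same route. Fgfr1 iΔEC/iΔEC mice carried VE-cadherin-CreERT2 on the Fgfr1 loxP/loxP background, so tamoxifen deleted Fgfr1 in cells that use the VE-cadherin promoter. Both genotypes were given tamoxifen into the peritoneum. The second experiment had no saline group, and its LPS dose differed from that of the first, so the experiments were read apart. Lungs were taken at 24 h, and ECs were isolated with magnetic beads as CD31+ CD45- cells. The depth was 13478726 to 18807007 reads on genes in the saline libraries, 17840221 to 19043015 in the LPS libraries, 15969575 to 17002788 in loxP/loxP and 16642177 to 16943522 in iΔEC/iΔEC. The labels do not say whether the samples of a group were single or pooled mice, so the tests measured the spread between these samples.

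S1P is a lipid mediator made when sphingosine kinases phosphorylate sphingosine. ECs export it through SPNS2, the lyase SGPL1 breaks it down irreversibly inside the cell, and phosphatases such as PLPP3 remove its phosphate. S1PR1 couples to Gi and Rac and supports junctions between ECs, whereas S1PR2 couples to G12/13 and RhoA and is known for opening the barrier.

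Every library carried the defining EC transcripts. All 10 endothelial markers were at 1 FPKM or more in all libraries of both experiments, and Cldn5, the tight-junction claudin of ECs, was the most abundant. The summed level of these markers was 3473 to 5849 FPKM in saline and 1524 to 3596 FPKM in LPS libraries. Saline 1 had the highest sum, and the other saline libraries were at 3473 to 4280 FPKM. The lowest sum belonged to LPS 1, and 5 of the 10 markers were lower in LPS by limma, none higher. Transcripts of cells other than ECs were present as well. The 6 leukocyte markers, led by Tyrobp, summed to 101 to 342 FPKM in saline and 965 to 2379 FPKM in LPS, and all 6 were higher in LPS by limma. The 8 macrophage markers, led by Csf1r, summed to 21.2 to 35.3 FPKM in saline and 345 to 788 FPKM in LPS, with 6 of 8 higher and 1 lower by limma, and Marco was listed at 0 in 1 saline library. The 8 neutrophil markers, led by S100a9, summed to 1279 to 6609 FPKM in LPS, with 6 of 8 higher by limma, and Ly6g was listed at 0 in 1 saline library. Of the other markers tested, 3 of 5 for lymphocytes, 3 of 9 for epithelium, 4 of 6 for fibroblasts and 2 of 7 for mural cells were lower in LPS, beside 23.7% of all genes, and 3 of 6 for platelets were higher, beside 29.5%. Both tested erythroid markers were higher in LPS, with sums of 5.44 to 22.8 FPKM in saline and 19.3 to 65.8 FPKM in LPS. In bulk RNA, fewer cells of a type and less RNA per cell cannot be told apart.

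The saline 1 library stood apart from the other saline libraries. It had the fewest reads (13478726), a neutrophil marker sum of 1387 FPKM against 70.3 to 306 FPKM, and a lymphatic marker sum of 1271 FPKM against 262 to 464 FPKM, nearly all of it Lyve1. Its endothelial (5849 FPKM), epithelial (2956 FPKM) and mural (126 FPKM) marker sums were also the highest of the saline group, while its lymphocyte sum (103 FPKM) was not. Saline 1 was the highest saline library for S1pr1, S1pr3, Sphk1 and Sgpl1, and the lowest for S1pr2, S1pr4, Sphk2 and Spns2. For the 9 members and their ratios, fold changes that it moved by over 1.5 times are given with and without it.

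Genes that moved together in LPS are shown with the 250 bases before their start in RefSeq (GRCm38.p6), to set the sequences of the members that fell beside that of the member that rose most. Capitals mark CCACCC or its reverse complement GGGTGG, the CACCC box that Kruppel-like factors such as KLF2 are known to bind. No other motif was searched.
Plpp3, chr4:105157097-105157346, plus strand: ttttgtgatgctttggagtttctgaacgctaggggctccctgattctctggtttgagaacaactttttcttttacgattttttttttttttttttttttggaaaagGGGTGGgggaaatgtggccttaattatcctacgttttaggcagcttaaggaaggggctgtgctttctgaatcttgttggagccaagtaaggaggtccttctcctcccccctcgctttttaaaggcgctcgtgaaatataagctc
S1pr3, chr13:51408368-51408617, plus strand: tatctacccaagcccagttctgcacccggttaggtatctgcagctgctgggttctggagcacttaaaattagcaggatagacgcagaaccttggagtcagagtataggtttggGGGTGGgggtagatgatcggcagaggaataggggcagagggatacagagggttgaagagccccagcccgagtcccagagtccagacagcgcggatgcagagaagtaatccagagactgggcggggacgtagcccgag
Spns2, chr11:72475028-72475277, minus strand: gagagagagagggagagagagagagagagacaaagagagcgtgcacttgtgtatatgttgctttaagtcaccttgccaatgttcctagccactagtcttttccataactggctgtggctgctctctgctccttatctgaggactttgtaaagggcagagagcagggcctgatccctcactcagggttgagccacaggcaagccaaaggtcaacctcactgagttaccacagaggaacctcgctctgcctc
Sgpl1, chr10:61147685-61147934, minus strand: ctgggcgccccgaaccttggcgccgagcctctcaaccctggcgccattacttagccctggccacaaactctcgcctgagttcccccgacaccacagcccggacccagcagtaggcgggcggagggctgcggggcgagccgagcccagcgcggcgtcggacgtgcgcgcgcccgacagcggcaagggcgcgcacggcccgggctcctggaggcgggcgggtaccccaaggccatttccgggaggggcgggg
The box lay 144 bases before the start of Plpp3 and 137 bases before that of S1pr3. These letters were not in the windows of Spns2 and Sgpl1. The start that RefSeq gives for Spns2 lies inside the gene as the files give it (chr11:72451638-72489904, minus strand). The bases before the start of Spns2 in the files were therefore not searched. For S1pr3 the RefSeq start lies before the gene as the files give it. In all, 8 of the 9 members matched the table, all but S1pr1, with 13 windows, since Sphk1 and Sphk2 have several starts. The box was in 8 of these windows, which belonged to Plpp3, S1pr3, S1pr4, Sphk1 and Sphk2, and the Sphk1 windows overlap in part. Of all 32851 windows of this length, 28.1% held it. A match is a description of the letters only.

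First, the comparison of LPS with saline asked what the 24 h response to 10 mg/kg LPS did to this system. At an adjusted p of 0.05 or less by limma, 4 of the 9 members were higher (Sgpl1, Sphk1, S1pr2 and Sphk2) and 3 were lower (Spns2, Plpp3 and S1pr3). Of the 14893 genes tested, 29.5% were higher and 23.7% lower (53.2% in either direction), and 59.6% had an unadjusted p under 0.05. With a log2 fold change of at least 1 in size as well, 1 member was higher (Sgpl1) and 3 were lower (Spns2, Plpp3 and S1pr3), beside 11.9% higher and 6.79% lower among all genes. Groups did not overlap for 6 members, compared with 39.4% of all genes. Without saline 1, Sgpl1, S1pr2, Sphk2, Spns2, Plpp3 and S1pr3 still passed the adjusted p, with values up to 0.00512 by limma. S1pr3 was then under the fold limit (-0.91), as it was without LPS 1 (-0.93) or saline 4 (-0.99), and Sphk1 was over it (1.32). The median log2 fold change was 0.24 over the members and 0.01 over all genes tested.

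**Figure D1:**
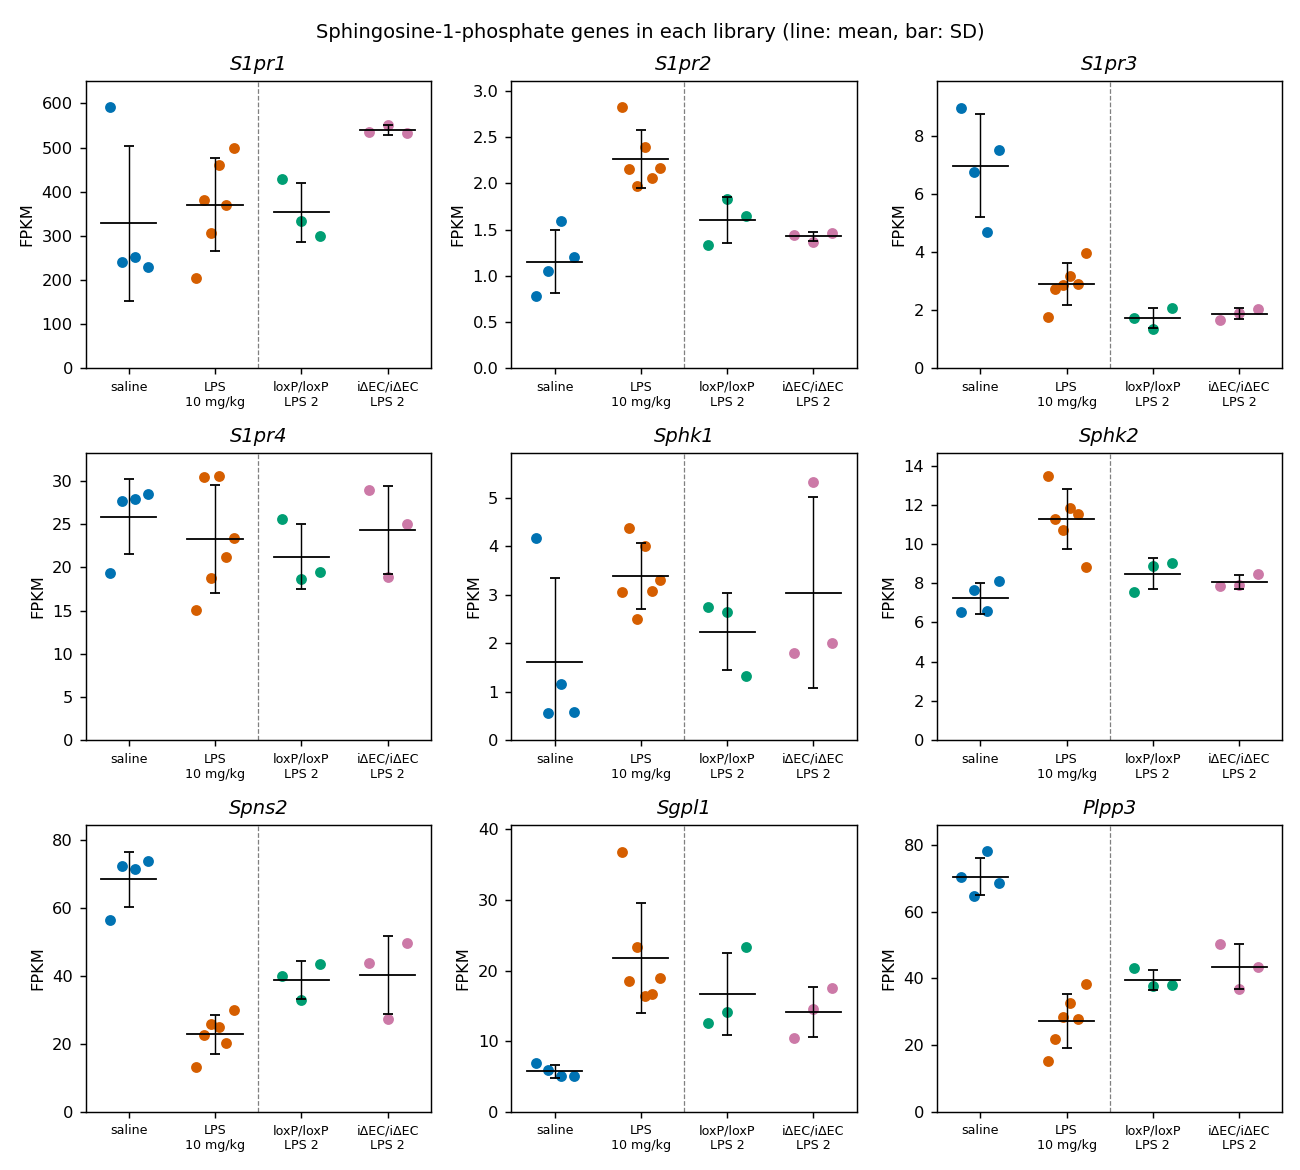
FPKM of the 9 S1P genes in each library, with 1 panel per gene, points for libraries (saline n = 4, LPS 10 mg/kg n = 6, loxP/loxP n = 3, iΔEC/iΔEC n = 3), lines for means and bars for SD; the dashed line separates the experiments, which were normalized apart. Spns2, Plpp3 and S1pr3 sit lower in all LPS libraries than in any saline library and Sgpl1 sits higher, while 1 saline library (592 FPKM) lies above all LPS libraries for S1pr1.

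Among the receptors, S1pr1 was by far the most abundant on the per-length scale. Its level was 592, 242, 251 and 229 FPKM in saline 1 to 4, and 205, 382, 306, 460, 370 and 499 FPKM in LPS 1 to 6. The groups overlapped, because saline 1 was above every LPS library and LPS 1 was below every saline library. The mean was 328 ± 176 FPKM (SD, n = 4) in saline and 371 ± 106 FPKM (SD, n = 6) in LPS. The log2 fold change was 0.24 (SE 0.32, 95% interval -0.46 to 0.94), with an adjusted p of 0.543 by limma. Without saline 1 it was 0.57 (SE 0.26, adjusted p = 0.0891), and all LPS libraries but LPS 1 were then above all saline libraries. Over all fits that left out 1 library it ranged from 0.11, without saline 4, to this value. S1pr1 (ENSMUSG00000045092) lies on chr3:115710433-115715072, minus strand, in GRCm38.

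S1pr3, a receptor that couples to Gi, Gq and G12/13, was lower in LPS. Its level was 8.96, 6.76, 4.70 and 7.51 FPKM in saline 1 to 4, and 1.76, 2.73, 2.85, 3.17, 2.91 and 3.96 FPKM in LPS 1 to 6. The LPS libraries all lay under the lowest saline library. The log2 fold change was -1.03 (SE 0.18, adjusted p = 0.000837 by limma), and the fold of the mean FPKM was 0.415. S1pr3 (ENSMUSG00000067586) spans chr13:51408639-51422797 on the plus strand, where its exons overlap those of Gm32834, which was near 0 in both groups (0.119 FPKM in saline and 0.0558 FPKM in LPS).

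S1pr2 had the lowest mean of the 9 members in both groups. In saline this rested on saline 1, since Sphk1 was below S1pr2 in each of saline 2 to 4. S1pr2 was higher in LPS. Its level was 0.778, 1.05, 1.59 and 1.20 FPKM in saline 1 to 4, and 2.83, 2.16, 1.97, 2.40, 2.06 and 2.16 FPKM in LPS 1 to 6. The groups did not overlap, and the highest value was that of LPS 1. Its log2 fold change was 0.61 (SE 0.13, adjusted p = 0.00242 by limma) on the log2(FPKM + 1) scale, which understates the change of low genes. On the recovered read numbers, which were 82 to 226 per saline library and 279 to 415 per LPS library, limma-voom gave 0.99 (adjusted p = 0.00124). S1pr2 (ENSMUSG00000043895) lies on chr9:20962361-20976781, minus strand.

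S1pr4, a receptor known mainly from blood cells, was at 25.9 ± 4.37 FPKM (SD, n = 4) in saline and 23.3 ± 6.30 FPKM (SD, n = 6) in LPS. Its log2 fold change was -0.17 (95% interval -0.62 to 0.27, adjusted p = 0.491 by limma), and the groups overlapped. It was -0.30 without saline 1 (adjusted p = 0.235) and -0.06 without LPS 1 (adjusted p = 0.789), both by limma. With quantile normalization it was -0.56 (adjusted p = 0.0359 by limma). With scaling on the 10 endothelial markers it was 0.52 (adjusted p = 0.0378 by limma), where the median of all genes was 0.56, so that relative to this median it was -0.043. S1pr4 (ENSMUSG00000044199) lies on chr10:81497747-81500132, minus strand.

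S1pr5, the remaining S1P receptor, known from natural killer cells and patrolling monocytes, is not one of the 9 members but completes the family. It was at 1.57, 1.57, 1.10 and 0.935 FPKM in saline 1 to 4, and at 20.5, 21.2, 21.1, 12.8, 18.1 and 11.5 FPKM in LPS 1 to 6. All LPS libraries were above all saline libraries. The lowest was LPS 6, which had the lowest leukocyte sum of the LPS group (965 FPKM), whereas LPS 3, with the next lowest sum (1558 FPKM), was among the highest for S1pr5. Nkg7, a natural killer cell gene of the lymphocyte list, had means of 5.42 FPKM in saline and 2.77 FPKM in LPS (adjusted p = 0.0803 by limma). Saline 1 was at 11.1 FPKM for Nkg7, and the other saline libraries had a mean of 3.53 FPKM. The log2 difference of Nkg7 was -0.655 with saline 1 and -0.30 without it, the latter with no test. Csf1r, of the macrophage list, had means of 7.13 FPKM in saline and 211 FPKM in LPS. The log2 fold change of S1pr5 was 2.99 (SE 0.19, adjusted p = 1.13e-06 by limma). The part of other cells in the change was not tested.

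Of the summed FPKM of the 5 receptors, S1pr1 made up 88.8% ± 4.27 (SD, n = 4) in saline and 88.3% ± 3.05 (SD, n = 6) in LPS. The saline median was 87.2% and the highest saline value 95.1%. The share of S1pr3 was 1.44% to 2.82% in saline and 0.622% to 0.814% in LPS, with no overlap. S1pr5 held 0.387% ± 0.130 (SD, n = 4) of the sum in saline and 4.70% ± 2.30 (SD, n = 6) in LPS. In saline, S1pr4 came next after S1pr1 among the receptors, followed by S1pr3. In LPS, S1pr3 ranges overlapped those of S1pr2, and the order of those neighbours was within their spread.

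The log2 ratio of S1pr1 to S1pr3 (FPKM + 1) was 5.27 ± 0.51 (SD, n = 4) in saline and 6.54 ± 0.22 (SD, n = 6) in LPS. It rose by 1.27 in a two-sided exact permutation test (p = 0.00476, the smallest that 4 against 6 libraries allow, adjusted p = 0.00952 over 6 ratios), and no saline library reached an LPS library. The ratio of S1pr1 to S1pr2 differed by -0.37 (adjusted exact permutation p = 0.486), and without saline 1 the difference was 0.046 (adjusted exact permutation p = 0.905). Adding 1 FPKM weighs on a gene as low as S1pr2. With a pseudocount of 0.1 and all libraries, this ratio differed by -0.70 (adjusted exact permutation p = 0.28). The ratio of S1pr1 to Pecam1, the CD31 gene by which the cells were sorted, differed by 0.41 (adjusted exact permutation p = 0.0714). Without saline 1 that difference was 0.61 (adjusted exact permutation p = 0.0179).

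Both kinases had higher means in LPS. Sphk1, the cytoplasmic kinase that is induced by many stimuli, was at 4.16, 0.549, 1.15 and 0.585 FPKM in saline 1 to 4, and at 3.06, 4.38, 2.51, 4.01, 3.07 and 3.30 FPKM in LPS 1 to 6. Saline 1 lay inside the LPS range, and the other saline libraries were below all LPS libraries. The log2 fold change was 0.93 (SE 0.30, adjusted p = 0.0226 by limma). It was 1.32 (adjusted p = 0.000117) without saline 1. The call was lost when saline 2, saline 3 or saline 4 was left out, with adjusted p up to 0.0766. It was also lost without the filter on low values (adjusted p = 0.0606). Limma-voom on read numbers gave 1.70 (adjusted p = 0.00468). Sphk1 (ENSMUSG00000061878) lies on chr11:116530925-116536674, plus strand.

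Sphk2, the kinase isoform found in the nucleus and mitochondria, was at 6.54, 7.65, 6.57 and 8.10 FPKM in saline 1 to 4, and at 13.5, 11.3, 10.7, 11.8, 11.5 and 8.84 FPKM in LPS 1 to 6. The groups did not overlap, although LPS 6 lay close to saline 4. Its log2 fold change was 0.57 (SE 0.12, adjusted p = 0.00219 by limma). Sphk2 (ENSMUSG00000057342, chr7:45709467-45718002, minus strand) shares exon bases with Dbp and Rpl18 on the other strand, and whether strand was used in counting is not given in the sources used here. Dbp, a clock output gene, fell by 2.77 on the log2 scale (adjusted p = 0.00103 by limma), and Rpl18, a ribosomal protein gene, rose by 1.11 (adjusted p = 0.00311 by limma). How much of the Sphk2 value came from these neighbours was not tested.

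The exporter showed the largest decrease of the 9 genes. Spns2 was at 56.3, 72.3, 71.3 and 73.7 FPKM in saline 1 to 4, and at 13.2, 22.7, 25.8, 25.0, 20.1 and 30.1 FPKM in LPS 1 to 6. All LPS libraries were far below all saline libraries. Means were 68.4 ± 8.12 FPKM in saline (SD, n = 4) and 22.8 ± 5.76 FPKM in LPS (SD, n = 6), which gave a log2 fold change of -1.58 (SE 0.20, adjusted p = 8.49e-05 by limma). Relative to Pecam1 in the same library, Spns2 was lower by a log2 difference of -1.40, with no overlap between groups (adjusted exact permutation p = 0.00952). Pecam1 itself was little lower in LPS (-0.17, adjusted p = 0.516 by limma), and its log2 difference without saline 1 was -0.043, with no test. Other endothelial markers fell by limma, namely Kdr (-1.63), Tek (-1.20), Tie1 (-1.07), Cdh5 (-0.88) and Erg (-0.77). No ratio to those markers was computed. How far other cells added to the Pecam1 values was not tested, for Spns2 here or Plpp3 below. Spns2 (ENSMUSG00000040447) lies on chr11:72451638-72489904, minus strand. Its exons overlap those of Mybbp1a on the other strand, a gene that rose by 0.80 on the log2 scale (adjusted p = 0.000686 by limma), the opposite direction to Spns2. How much of the Spns2 value came from Mybbp1a was not tested.

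Breakdown genes moved in opposite directions. Plpp3, which acts on S1P and lysophosphatidic acid outside the cell, was at 70.3, 64.8, 78.1 and 68.6 FPKM in saline 1 to 4, and at 15.1, 21.7, 28.4, 32.5, 27.8 and 38.2 FPKM in LPS 1 to 6. The groups did not overlap. The log2 fold change was -1.39 (SE 0.22, adjusted p = 0.00035 by limma), and relative to Pecam1 the log2 difference was -1.22 (adjusted exact permutation p = 0.00952). Plpp3 (ENSMUSG00000028517) lies on chr4:105157347-105232764, plus strand.

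Sgpl1 was at 6.94, 5.90, 5.01 and 5.10 FPKM in saline 1 to 4, and at 36.8, 18.5, 23.3, 16.4, 16.7 and 18.9 FPKM in LPS 1 to 6. No saline library reached the lowest LPS library, and LPS 1 was far above the rest. The log2 fold change was 1.71 (SE 0.21, adjusted p = 6.87e-05 by limma). It was 1.55 (adjusted p = 1.58e-05) without LPS 1. The log2 ratio of Sphk1 to Sgpl1, synthesis against irreversible breakdown, differed by -0.78 between LPS and saline (adjusted exact permutation p = 0.126), with overlapping groups. The difference was -0.47 without saline 1 (adjusted exact permutation p = 0.3) and -0.39 with a pseudocount of 0.1 (adjusted exact permutation p = 0.533). Sgpl1 (ENSMUSG00000020097) lies on chr10:61098642-61147703, minus strand.

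Thus the order of levels changed in the middle of the list. In saline, Plpp3 and Spns2 followed S1pr1 with overlapping ranges, and S1pr4 stood below them. In LPS, the ranges of Plpp3, S1pr4, Spns2 and Sgpl1, taken in the order of their means, each overlapped the next of these 4. Within the LPS group, LPS 1 was the lowest library for S1pr1, S1pr3, S1pr4, Spns2 and Plpp3 and the highest for S1pr2, Sphk2 and Sgpl1. It had the lowest endothelial sum (1524 FPKM) and the highest leukocyte (2379 FPKM) and macrophage (788 FPKM) sums of that group. LPS 6, with the lowest leukocyte sum (965 FPKM), was the highest for S1pr1, S1pr3, Spns2 and Plpp3. The part of other cells in these differences was not tested.

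**Figure D2:**
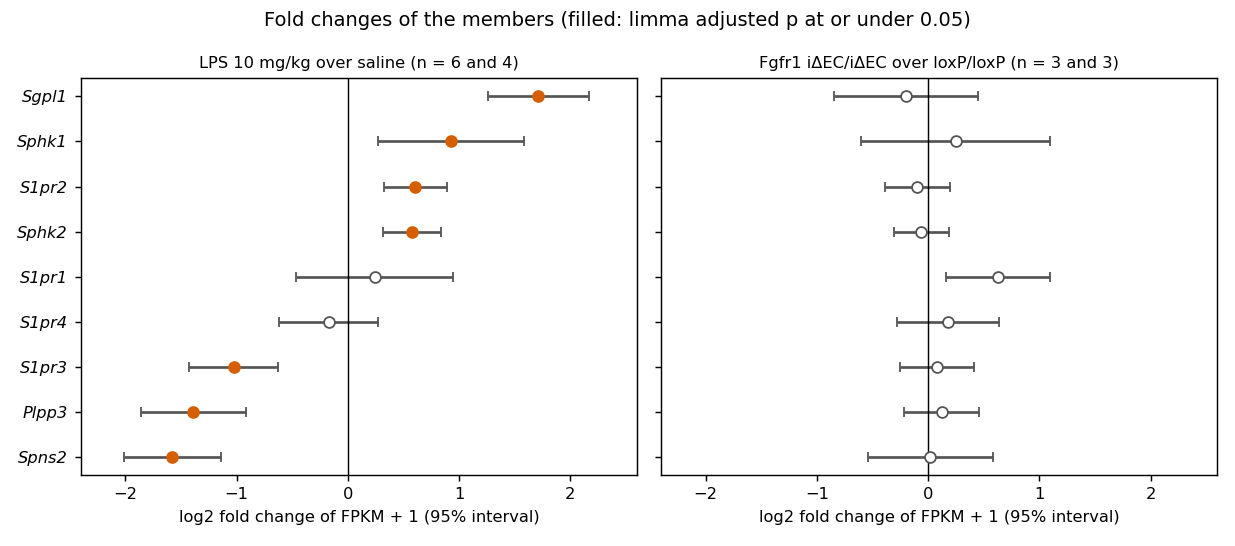
Log2 fold change of FPKM + 1 (horizontal axis) of the 9 genes in LPS over saline (left) and in iΔEC/iΔEC over loxP/loxP (right), with 95% intervals; filled points have a limma adjusted p of 0.05 or less. On the left, values run from -1.58 for Spns2 to 1.71 for Sgpl1, and on the right only the interval of S1pr1 (0.16 to 1.10) lies clear of 0, without an adjusted call. Under another scaling S1pr1 and S1pr4 change sign on the left, and S1pr3, S1pr4, Spns2 and Plpp3 on the right, but relative to the median of all genes under that scaling S1pr4 keeps its sign on the left, and S1pr3, S1pr4 and Plpp3 keep theirs on the right.

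Scaling mattered for several of these values. When the libraries were scaled on the 10 endothelial markers, the median of all genes shifted to 0.56 on the log2 scale. Under that scaling S1pr1 was at 0.96 (adjusted p = 0.00492 by limma), S1pr3 at -0.45 (adjusted p = 0.0703), Plpp3 at -0.68 (adjusted p = 0.00638) and Spns2 at -0.87 (adjusted p = 0.00146). Relative to the shifted median, S1pr3 was at -1.01, Plpp3 at -1.25, Spns2 at -1.44, S1pr4 at -0.043 and S1pr1 at 0.40. Sphk2 was at 1.22 and S1pr2 at 1.04 under that scaling, and at 0.66 and 0.48 relative to its median. Scaling to total reads moved the median to -0.14.

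**Figure D3:**
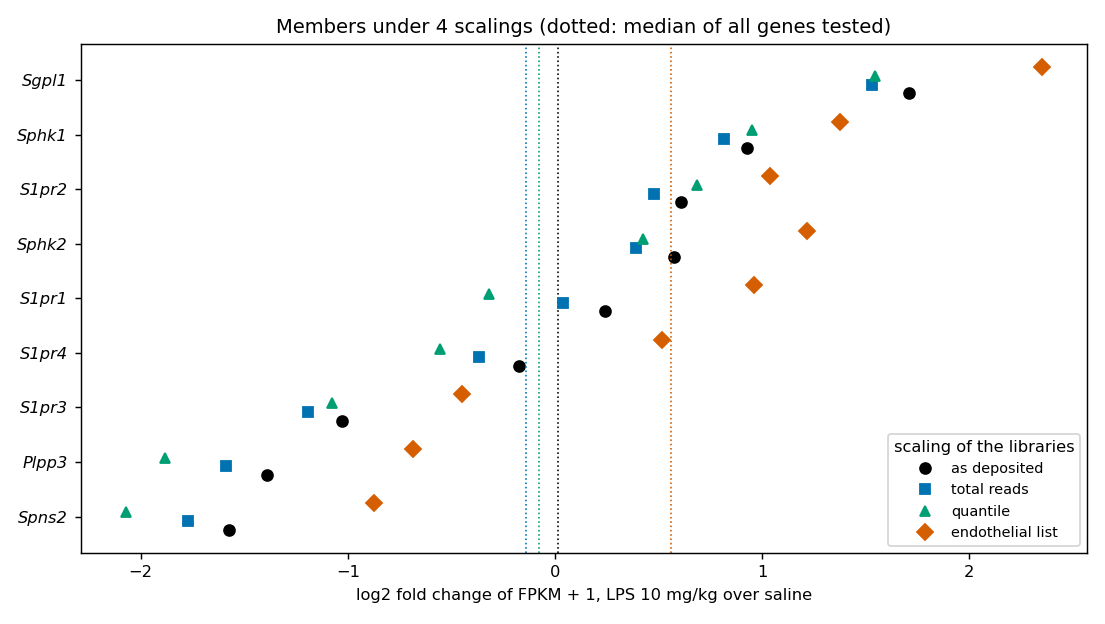
Log2 fold change of FPKM + 1 in LPS over saline (horizontal axis) for the 9 genes under 4 scalings of the libraries, with dotted lines at the median of all genes tested. Spns2, Plpp3 and S1pr3 stay below 0 and Sgpl1, Sphk1, S1pr2 and Sphk2 above 0 under all 4, while S1pr1 (-0.32 with quantile normalization) and S1pr4 (0.52 with the endothelial list, -0.043 relative to the dotted line) cross 0.

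Other genes of sphingolipid metabolism were followed in 4 lists. Of 43 listed genes 36 were tested, and 17 were higher and 7 lower in LPS at an adjusted p of 0.05 or less by limma, beside 29.5% and 23.7% of all genes. Their median log2 fold change was 0.26. In the list of the other receptor and carriers, Mfsd2b, the S1P exporter of red cells and platelets, was at 1.04 FPKM in saline and 0.788 FPKM in LPS (adjusted p = 0.353 by limma). Apom, the apolipoprotein that carries S1P, had means of 0.201 and 0.171 FPKM and was not tested.

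Among the phosphatases and the enzyme after the lyase, 2 of 5 genes were higher and 1 was lower, beside 29.5% and 23.7% of all genes. Plpp2, a relative of Plpp3, was higher with a log2 fold change of 0.80 (adjusted p = 0.00407 by limma). Sgpp2, an S1P phosphatase of the endoplasmic reticulum, was lower with a log2 fold change of -0.46 (adjusted p = 0.0123 by limma).

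The genes that supply ceramide and sphingosine moved both ways, with 7 higher and 4 lower of 17 tested, beside 29.5% and 23.7% of all genes. The part of the higher leukocyte and macrophage sums in this list was not tested. Ceramide synthases split. Cers6, at 1.65 ± 1.28 FPKM in saline (SD, n = 4) and 10.2 ± 4.09 FPKM in LPS (SD, n = 6), rose by 2.11 on the log2 scale (adjusted p = 0.000228 by limma). Saline 1 was at 3.53 FPKM, and the other saline libraries had a mean of 1.03 FPKM, from which the log2 difference, computed after seeing the data and with no test, was 2.40. Cers4 went the other way, from 11.7 ± 2.27 to 4.76 ± 1.14 FPKM, with a log2 fold change of -1.15 (adjusted p = 0.000434 by limma). Ceramidases, which release sphingosine, split too. The acid ceramidase gene Asah1 rose by 1.12 (adjusted p = 5.84e-05 by limma), from 28.1 to 62.4 FPKM. Acer2, the Golgi alkaline ceramidase and an abundant transcript in saline (148 ± 42.8 FPKM, SD, n = 4), fell to 64.7 ± 19.6 FPKM in LPS (SD, n = 6), with a log2 fold change of -1.20 (adjusted p = 0.00242 by limma). Ormdl1, a regulator of serine palmitoyltransferase, rose by 1.05 (adjusted p = 0.000321 by limma).

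In the list of sphingomyelin and ceramide use, 6 of 11 tested genes were higher and 2 lower, beside 29.5% and 23.7% of all genes. The largest rise of all 4 lists was that of Smpdl3b, a membrane phosphodiesterase related to acid sphingomyelinase, at 1.73 ± 0.97 FPKM in saline (SD, n = 4) and 36.2 ± 12.1 FPKM in LPS (SD, n = 6), with a log2 fold change of 3.76 (adjusted p = 4.09e-06 by limma). Its relative Smpdl3a rose by 1.62 (adjusted p = 7.49e-06 by limma). The sphingomyelin synthase gene Sgms2 rose from a mean of 0.892 to 4.06 FPKM (adjusted p = 0.00349 by limma), with overlapping groups. Saline 1 was at 2.61 FPKM, the other saline libraries had a mean of 0.320 FPKM, and the log2 difference from those 3, computed in the same way, was 1.86. The lowest value was that of Smpd2, a neutral sphingomyelinase gene, which fell by 0.43 on the log2 scale (adjusted p = 0.0295 by limma). Leukocyte and macrophage sums were higher in the same LPS libraries, and their part was not tested.

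Of 23 genes for receptor coupling and control, 11 were higher and 5 lower in LPS, beside 29.5% and 23.7% of all genes. The part of the higher leukocyte and macrophage sums in this list was not tested. Arrb2, encoding β-arrestin 2, rose by 1.83 (adjusted p = 8.6e-05 by limma). Grk2, a kinase that marks S1PR1 for internalization, rose by 1.19 (adjusted p = 0.000113 by limma). Klf2, a shear-responsive factor that is known to act on the S1PR1 gene, was at 228 ± 24.0 FPKM in saline (SD, n = 4) and 531 ± 79.0 FPKM in LPS (SD, n = 6), with a log2 fold change of 1.21 (adjusted p = 0.000153 by limma). Arhgef12, a RhoGEF that links G12/13 to RhoA, fell from 44.6 ± 7.18 to 15.2 ± 5.12 FPKM, with a log2 fold change of -1.53 (adjusted p = 0.000217 by limma).

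**Figure D4:**
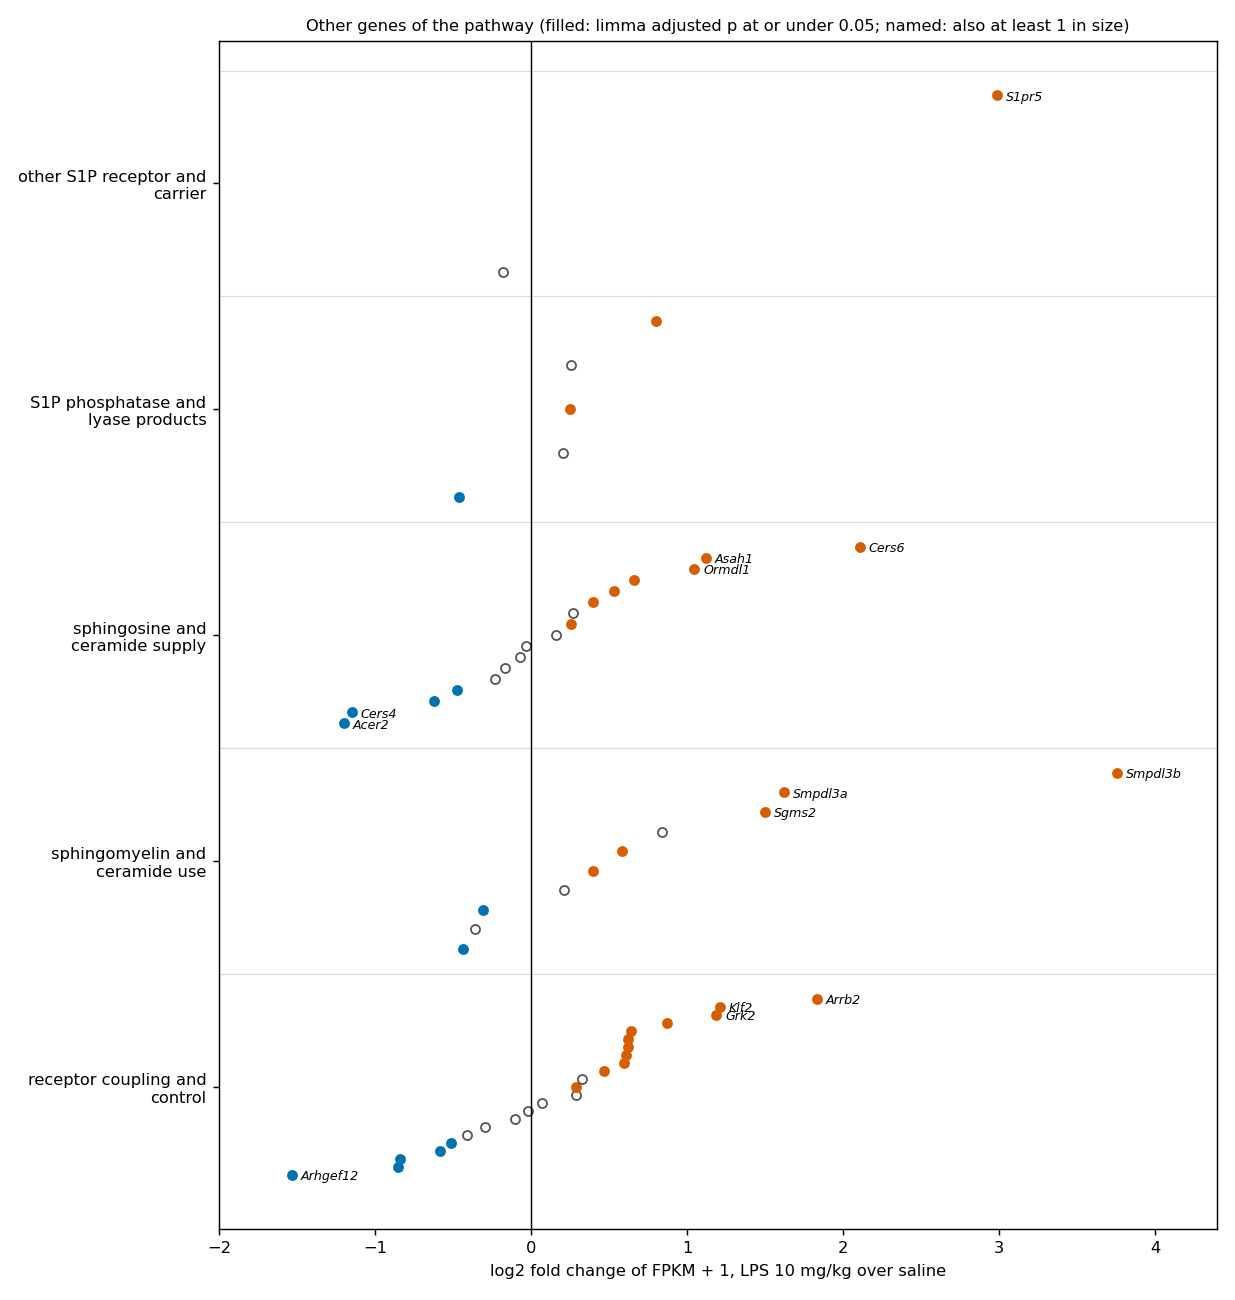
Log2 fold change of FPKM + 1 in LPS over saline (horizontal axis) for tested genes of 5 lists (vertical axis), as points; filled points have a limma adjusted p of 0.05 or less (orange higher, blue lower), and names are given where the size is also at least 1. Values run from -1.53 for Arhgef12 to 3.76 for Smpdl3b.

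Genes whose pattern over the 10 saline and LPS libraries was most like that of S1pr1 were Mafk, Carhsp1, Ppp1r2, Ddx50 and P4ha2, with Pearson's r of log2(FPKM + 1) from 0.955 to 0.978 among the 7765 genes whose mean reached 5 FPKM. For Sphk1 they were Pdlim7, Yrdc, Marcks, Nup50 and Coq10b, with r from 0.98 to 0.991. The 10 points share their libraries and hold 2 treatment groups, and saline 1 was the highest of the 10 for S1pr1 and the highest saline library for Sphk1, so the values describe these libraries only.

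Next, the second comparison asked whether loss of endothelial Fgfr1 altered the same genes under 2 mg/kg LPS. The deleted gene was examined first. Fgfr1 was at 2.90, 2.91 and 2.59 FPKM in loxP/loxP 1 to 3 and at 0.683, 1.41 and 1.15 FPKM in iΔEC/iΔEC 1 to 3. All iΔEC/iΔEC libraries were below all loxP/loxP libraries, as their labels have it, with a log2 fold change of -0.88 (SE 0.16, unadjusted p = 0.00103 and adjusted p = 0.96 by limma). No gene passed an adjusted p of 0.05 by limma or limma-voom, so 0% of the 14944 genes tested were called. By limma 663 genes (4.44%) had an unadjusted p under 0.05, and by limma-voom 614 did. With the replicate number as a block, 1150 genes (7.70%) did by limma. Leaving out 1 library gave from 402 (2.68%), without iΔEC/iΔEC 1, to 1075 (7.21%), without iΔEC/iΔEC 2. No gene passed the adjusted p in these fits either. Groups did not overlap for 10.2% of genes, of which 6.1% were higher and 4.07% lower in iΔEC/iΔEC.

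Groups did not overlap for 1 of the 9 members, S1pr1, a share near the 10.2% of all genes. S1pr1 was at 428, 332 and 299 FPKM in loxP/loxP 1 to 3 and at 535, 552 and 532 FPKM in iΔEC/iΔEC 1 to 3. All iΔEC/iΔEC libraries were above all loxP/loxP libraries and lay close to each other. The mean was 353 ± 66.8 FPKM (SD, n = 3) against 540 ± 10.8 FPKM (SD, n = 3), and the log2 fold change was 0.63 (SE 0.20, 95% interval 0.16 to 1.10). The unadjusted p was 0.0162 and the adjusted p 0.96 by limma, so the difference did not pass. The exact permutation p was 0.1, the smallest that 3 against 3 libraries can give. With scaling on the endothelial list, which moved the median of all genes to -0.20, the value was 0.36 (adjusted p = 0.74 by limma).

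Markers of ECs and of other cells were set beside it. The endothelial sum was 2510 to 3118 FPKM in loxP/loxP and 2846 to 3954 FPKM in iΔEC/iΔEC, with overlap. None of the 10 markers passed an adjusted p of 0.05 by limma, groups did not overlap for 2 of them, and their median log2 fold change was 0.31. The epithelial markers, led by Sftpc, had a median of -0.69 and sums of 973 to 2964 FPKM against 496 to 1141 FPKM. The medians were -0.47 for neutrophil, -0.42 for lymphocyte, -0.21 for leukocyte and -0.17 for macrophage markers, and no gene of these lists passed by limma. The part of other cells in the S1pr1 values was not tested. The log2 ratio of S1pr1 to Pecam1 differed by 0.36, that to S1pr3 by 0.55 and that to S1pr2 by 0.72, and the groups did not overlap for any of these 3 ratios (exact permutation p = 0.1 and adjusted p = 0.2 over 6 ratios for each). The first of these differences was 0.22 without iΔEC/iΔEC 2, and the second was 0.34 without loxP/loxP 3. All 3 ratios share the S1pr1 values, which did not overlap by themselves, so these ratios are not separate observations.

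The other 8 members overlapped between genotypes. Their log2 fold changes ran from -0.20 for Sgpl1 to 0.25 for Sphk1, with unadjusted p-values from 0.379 to 0.932 by limma. With the replicate number as a block, the lowest unadjusted p of these members was 0.151 by limma, for S1pr4 and for Sgpl1 (adjusted p = 0.704). S1pr4 was at 25.6, 18.7 and 19.4 FPKM in loxP/loxP 1 to 3. It was at 29.0, 18.9 and 25.0 FPKM in iΔEC/iΔEC 1 to 3, higher in each same-numbered pair. Spns2 was at 39.9, 32.8 and 43.6 FPKM in loxP/loxP 1 to 3 and at 43.8, 27.4 and 49.7 FPKM in iΔEC/iΔEC 1 to 3. The 95% interval of its log2 fold change was -0.54 to 0.59, and its SE was 0.24, or 0.13 in the fit with the replicate number as a block. Plpp3 was at 43.0, 37.6 and 38.1 FPKM in loxP/loxP 1 to 3 and at 50.2, 36.7 and 43.5 FPKM in iΔEC/iΔEC 1 to 3, with an interval of -0.21 to 0.46. The interval of S1pr3 was -0.25 to 0.41, that of S1pr2 was -0.39 to 0.20, and that of Sphk2 was -0.31 to 0.18. Sphk1 had the widest interval, -0.60 to 1.09, and iΔEC/iΔEC 2 (5.32 FPKM) was far above the other libraries of its group (1.79 and 2.01 FPKM).

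S1pr1 held 91.4% to 93.0% of the summed receptor FPKM in loxP/loxP and 93.8% to 95.1% in iΔEC/iΔEC, and these ranges did not overlap. Its share draws on the same S1pr1 values and is not a separate observation. S1pr5 was at 4.21 ± 0.70 FPKM (SD, n = 3) and 4.05 ± 1.84 FPKM (SD, n = 3), with overlapping groups. Of the other sphingolipid genes 35 were tested in this experiment, with log2 fold changes from -0.41 to 0.59, and groups did not overlap for 5 of them, beside the 10.2% of all genes. The highest value was that of Plpp1, which encodes another lipid phosphate phosphatase. It was at 142 ± 28.9 FPKM (SD, n = 3) in loxP/loxP and 212 ± 31.1 FPKM (SD, n = 3) in iΔEC/iΔEC, with a log2 fold change of 0.59 (unadjusted p = 0.0235 and adjusted p = 0.96 by limma). Plpp1 was named after its values were seen.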

How the data were processed

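Libraries were read on an Illumina NovaSeq, and the authors mapped the reads to GRCm38/mm10 using HISAT2 (v2.0.5) and assigned them to genes using featureCounts (v1.5.0-p3). The annotation release and the strand setting are not given in the sources used here. They deposited FPKM and gene lengths for 54532 genes per table. FPKM times length came out as whole read numbers (within 0.01 of a read or 1e-05 of the value) for 100.0% of values above 0, and the library sizes implied by the FPKM differed from median-of-ratios factors by at most 0.182%. Altered symbols of 11 genes in the second table were replaced by those of the first, matched on gene ID.

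Log2(FPKM + 1) was compared with limma 3.58.1 (lmFit, eBayes with trend) in R 4.3.3, within each experiment, for genes whose mean FPKM was 0.5 or more, with Benjamini-Hochberg adjustment over all genes tested. Exact permutation tests were two-sided. Alternatives were another pseudocount (0.1), no filter, other scalings, limma-voom on the recovered reads, a replicate block and leaving out libraries. Fits were tested on simulated data. Precision at low levels is set by read number, and reads without molecular identifiers are not independent molecules. In the second experiment same-numbered libraries deviated together (r = 0.248, 0.177 and 0.187). This pairing is read from the data, the genotypes being littermates in the study's methods, and the block changed no call there.

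Named genes were the 9 members, listed pathway genes with an adjusted p of 0.05 or less and a log2 fold change of at least 1 in size in LPS over saline, the largest rise and fall of each list, Fgfr1, the most abundant gene of marker lists and those at 0, and the 5 genes most like S1pr1 and Sphk1. Outside this rule, Pecam1 was named for the ratios, and Apom, Nkg7, Plpp1, endothelial markers that fell and genes with overlapping exons were named after their values were seen. Besides, 2 genes of the lists were counted but not reported singly here. The members, lists and the promoter motif were chosen with earlier results of these data known.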

Additional observations from a re-analysis of the deposited data

Results flagged for a closer look

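Of the 30 values examined per group (9 members and 6 ratios in saline and in LPS), 5 had 1 library with a wide gap to the others, where chance gives about 1 in 20, or 1.5. All 5 were saline 1. On the log2(FPKM + 1) scale, S1pr1 was at 9.21 there and at 7.84 to 7.98 in the other saline libraries. S1pr4 was at 4.35, against 4.84 to 4.88. Spns2 was at 5.84, against 6.18 to 6.22. The log2 ratio of S1pr1 to S1pr2 was 8.38, against 6.61 to 6.89. That of S1pr1 to Pecam1 was 0.20, against -0.66 to -0.52. The 3 members and both ratios share 1 library, so these are not separate observations. Groups of 3 were not examined in this way.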

How the results depend on the processing

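Spns2, Plpp3, Sgpl1, Sphk2 and S1pr2 kept their direction and an adjusted p of 0.05 or less in LPS over saline under all alternatives tried. With the endothelial list, which moved the median of all genes to 0.56, Spns2 (-0.87) and Plpp3 (-0.68) fell under the fold limit of 1, and Sphk2 (1.22) and S1pr2 (1.04) passed it. Relative to that median they were at -1.44, -1.25, 0.66 and 0.48, each on its former side. S1pr3 lost its call with scaling on the endothelial list (-0.45, adjusted p = 0.0703), a scaling built on 10 markers, of which 5 were lower in LPS. S1pr1 was at -0.32 with quantile normalization and 0.96 (adjusted p = 0.00492) with the endothelial list. S1pr4 was at -0.56 (adjusted p = 0.0359) and 0.52 (adjusted p = 0.0378) under the same alternatives, the second being -0.043 relative to the shifted median. Sphk1 lost its call with no filter (0.93, adjusted p = 0.0606) and with the replicate block (0.95, adjusted p = 0.0786), and also, in a fit added after seeing the data, on the same libraries without the block (0.95, adjusted p = 0.0562). Same-numbered saline and LPS libraries did not deviate together (r from -0.209 to 0.097), so these numbers are names only. The block gave 1926 genes higher and 1062 lower. In iΔEC/iΔEC over loxP/loxP, Spns2 was at -0.046 with total reads, -0.026 with quantile normalization and -0.24 with the endothelial list, under which S1pr3 was at -0.085, S1pr4 at -0.079 and Plpp3 at -0.14. That scaling moved the median to -0.20, and relative to it S1pr3 was at 0.11, S1pr4 at 0.12 and Plpp3 at 0.057, which did not turn, and Spns2 at -0.045. The cause of the other changes was not tested.

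Genes past adjusted p and fold change numbered 1768 higher and 1011 lower in LPS. They were 4342 and 208 with the endothelial list, 1840 lower with a pseudocount of 0.1, 2008 lower with limma-voom, and 4399 and 3529 with no limit on the fold change. With total reads they were 1373 and 1440, and with quantile normalization 1366 and 1326.

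Leaving out 1 library at a time, Sphk1 in LPS over saline ranged from 0.74 to 1.32. It lost its call without saline 2, saline 3 or saline 4 (limma adjusted p up to 0.0766). On the FPKM + 1 scale, the ratio of S1pr1 to S1pr2 ranged from -0.55 to 0.046, turning without saline 1. The ratio of S1pr1 to Pecam1 ranged from 0.32 to 0.61 and passed without saline 1 (adjusted exact permutation p = 0.0179). In the second comparison, where an arm left with 2 libraries shared its spread with the other, the ratio of Sphk1 to Sgpl1 ranged from -0.029 to 0.77, S1pr3 from -0.017 to 0.17, Sphk1 from -0.13 to 0.46, Spns2 from -0.15 to 0.27 and Sgpl1 from -0.37 to 0.054, with no call. Gene counts in LPS over saline ranged from 1641 to 1947 higher and from 910 to 1107 lower.

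Added after seeing the data, leaving out both saline 1 and saline 3 gave 2003 genes higher and 1200 lower, and kept the calls of Sphk1 (1.47, adjusted p = 0.000225), Spns2 (-1.68), Plpp3 (-1.31), S1pr3 (-1.08), Sgpl1 (1.76), Sphk2 (0.46) and S1pr2 (0.61). Depth was low for S1pr2 (82 to 226 reads per saline library), Sphk1 (55 to 263) and, in the second experiment, S1pr3 (100 to 168 reads per loxP/loxP library).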
